A study of Mus musculus with 4 samples.

Results

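The 8 genes described here, Hmgcs1, Idi1, Fdps, Sqle, Cyp51, Srebf2, Insig1 and Scd2, were taken by symbol as a set for sterol synthesis and uptake, out of 20171 genes in the gene table, together with their 52 isoforms out of 68012 in the isoform table. Cells make sterols from acetyl units through the mevalonate pathway. Its early enzymes build 5-carbon units and join them into farnesyl diphosphate, and its late enzymes turn squalene into cholesterol. When membrane sterol is low, SREBP-2, the product of Srebf2, is carried from the endoplasmic reticulum to the Golgi by SCAP, is cut there by site-specific proteases and switches on the enzymes of the pathway. INSIG1, whose gene is itself a target, holds SCAP back when sterol is plentiful. The mouse oocyte is known to be poor at making its own cholesterol and to be supplied by the cumulus cells around it, so the embryo starts from what the oocyte stored. Despite the name of the set, it holds no uptake receptor, and Scd2 encodes a desaturase that puts a double bond into fatty acids.

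The study read full-length transcripts of single mouse cells on the PacBio platform (HIT-scISOseq). Cells were taken at defined hours after an injection of hCG, the hormone that triggers ovulation, from C57BL/6J females of 6 to 8 weeks. The MII oocytes came from females that were not mated, 20 h after hCG, and the rest from matings with DBA/2NCrl males by the methods of the study, where the labels give DBA/2J. Zygotes were collected at 22 to 24 h, early 2-cell embryos (E2C) at 30 to 32 h, late 2-cell embryos (L2C) at 46 to 48 h, 4-cell embryos at 54 to 56 h, 8-cell embryos at 68 to 70 h, 16-cell and 32-cell embryos at 78 to 80 h and early blastocysts at 88 to 90 h. The mouse embryonic stem cells (mESC) were E14 cells, an established line. All females had been made to ovulate with hormones, and there was no naturally cycling group.

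The tables held 161 cells, of which 121 carried in their names the number of an oocyte, a zygote or an embryo. There were 10 oocytes and 9 zygotes, followed by 5 embryos at E2C, 6 at L2C, 5 with 4 cells, 4 with 8 cells and 4 with 16 cells, and each of these 43 was counted as 1 replicate. The other 40 cells, 22 of 32-cell embryos, 13 of blastocysts and 5 mESC, named no embryo and were given as cells, without a test. Each value is the number of copies of a gene per 100,000 UMIs of its cell, a UMI (unique molecular identifier) being the tag that marks 1 captured RNA molecule. It is relative to the other RNA of the cell, so a loss of other transcripts and a gain of one cannot be told apart. The cells held from 4985 to 389775 UMIs, with a median of 195670.5 in oocytes, 58097 at L2C and 32481 at the 16-cell stage. A count of 0 over a stage allows up to 0.148 copies in oocytes, 0.572 at the 4-cell stage and 2.9 in mESC (3 UMIs, counting error only).

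Marker lists were read beside the labels. The 6 oocyte markers summed to between 1699 and 2813 copies in the oocytes. Of 16 cumulus and granulosa markers, 11 were listed, and these summed to between 4.42 and 11.2 copies per oocyte, led by Cyp19a1 at 7.45, while Ptx3, Amh, Lhcgr, Foxl2 and Nr5a1 were not listed. At L2C and 4-cell the same list summed to at most 24.9 and 42.1 copies and was led by Amhr2. The 4 late 2-cell markers had their highest medians in zygotes and E2C (48.3 and 41.6 copies) and a median of 4.76 in the embryos labelled L2C. The 5 trophectoderm markers summed to medians of 8.73 copies at the 4-cell stage and 44.8 at the 16-cell stage, and the 3 inner cell mass markers to a median of 83.6 in mESC. Of the oocyte markers, H1foo and Gdf9 were at 51.1 and 29.8 copies in mESC, Zp3 had 1 UMI there, and Zp1, Zp2 and Bmp15 had 0.

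Windows around the start site (RefSeq, GRCm38.p6) were at hand for 5 of the 8 genes. Those of Hmgcs1, Idi1, Insig1 and Srebf2 are given here upstream of the transcript, in the kind of stretch where SREBP proteins can act. They were chosen because these genes were called lower from E2C to L2C, as were 22.8% of all genes tested. A part of SREBP in that fall was not tested. Capitals mark TCACNCCAC, the core of a sterol regulatory element, or its shorter form TCACCCCA, and ATTGG, the reverse of the CCAAT box that often stands near it. Each line reads 5′ to 3′ on the plus strand, the strand of all 4 genes.
Hmgcs1, chr13:119690101-119690313: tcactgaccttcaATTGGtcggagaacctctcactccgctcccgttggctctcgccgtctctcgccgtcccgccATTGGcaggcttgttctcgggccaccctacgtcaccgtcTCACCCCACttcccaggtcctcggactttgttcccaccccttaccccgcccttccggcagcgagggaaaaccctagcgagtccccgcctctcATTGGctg
Srebf2, chr15:82147019-82147180: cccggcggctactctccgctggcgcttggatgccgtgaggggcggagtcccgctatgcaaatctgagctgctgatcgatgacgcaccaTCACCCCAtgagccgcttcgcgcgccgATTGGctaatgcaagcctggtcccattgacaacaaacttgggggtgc
Insig1, chr5:28071162-28071243: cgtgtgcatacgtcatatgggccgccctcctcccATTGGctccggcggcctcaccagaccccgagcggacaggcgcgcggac
Idi1, chr13:8885356-8885500: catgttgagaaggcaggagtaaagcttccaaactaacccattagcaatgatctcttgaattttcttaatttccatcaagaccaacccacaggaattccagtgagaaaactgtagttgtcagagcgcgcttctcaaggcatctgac
Hmgcs1 had the longer element from -137 to -129 relative to its RefSeq start, and Srebf2 had the shorter one from -162 to -155. Of 32851 windows of 300 bases in the mouse table, searched on both strands, 1.24% held TCACNCCAC, 1.56% held TCACCCCA and 37.4% held CCAAT. The shorter form was added after the sequences were seen, and it overlaps the longer one. The windows of Insig1, Idi1 and Cyp51, the last of them not printed, held CCAAT boxes and neither form of the element. The CCAAT boxes of Idi1, from -45 to -41 and from -14 to -10, lie outside its printed stretch. Insig1 had the E-box CACGTG from -101 to -96, outside the printed stretch, against 7.15% of all windows. A match of letters is a description and not a bound site.

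Stages were compared with the next stage in 1 limma fit over the 43 replicates, on log2(copies + 1), and a gene was called where the log2 difference was over 1 in size with an unadjusted p under 0.01, the limits of the study's methods. All 8 genes passed the filter on low values, among 11682 genes tested. Between oocyte and zygote 1 of the 8 was called, Hmgcs1, and it was higher, where 2.92% of all genes tested were called higher and 0.325% lower. From zygote to E2C 1 was called, Insig1, lower (all genes 4.52% higher, 2.75% lower). From E2C to L2C 5 were called, Sqle higher and Hmgcs1, Idi1, Insig1 and Srebf2 lower, at the step where 25.6% of all genes were called higher and 22.8% lower. From L2C to the 4-cell stage 1 was called, Fdps, higher (all genes 2.41% higher, 4.28% lower). None was called from the 4-cell to the 8-cell stage (4.47% higher, 10.5% lower), where limma gave 1 of the 8 an unadjusted p under 0.05, and 1 from the 8-cell to the 16-cell stage, Scd2, higher (1.9% higher, 1.46% lower). Cyp51 was called at no step. The median log2 difference of the 8 genes was -0.57 from E2C to L2C, beside 0.03 over all genes tested, and at the other 5 steps it lay between -0.27 and 0.31, beside -0.16 to 0.11 over all genes.

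**Figure D1:**
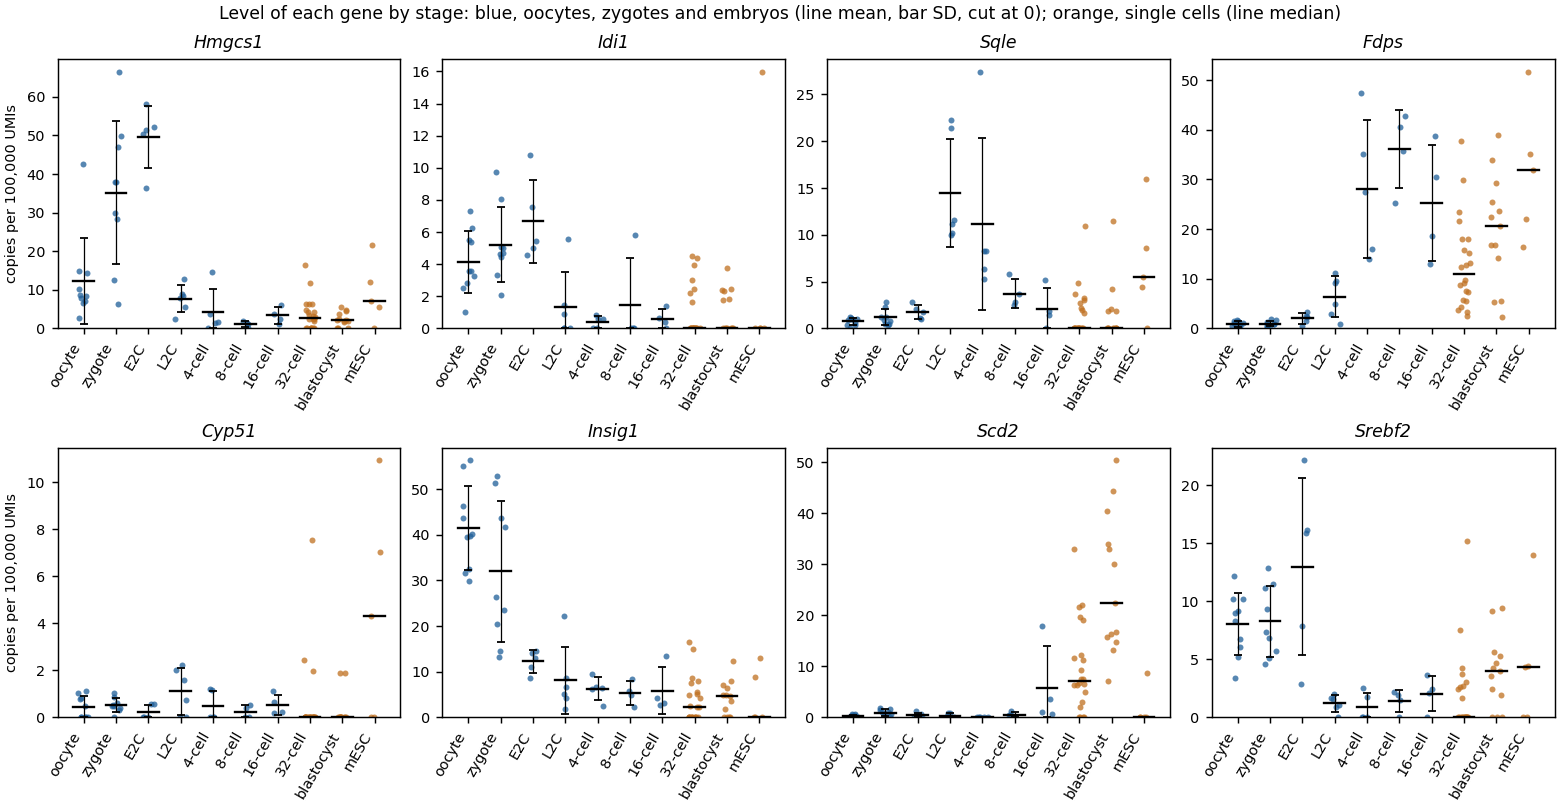
Level of each of the 8 genes by stage, in copies per 100,000 UMIs on linear axes that differ between genes. Blue points are oocytes, zygotes and embryos with the mean as a line and the SD as a bar cut off at 0, and orange points are single cells with the median as a line. Up to the 16-cell stage the means of Srebf2, Hmgcs1 and Idi1 are highest at E2C, that of Insig1 in oocytes, that of Sqle at L2C and that of Fdps at the 8-cell stage, while Scd2 has its highest median in blastocyst cells.

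Srebf2, the gene of the transcription factor, was detected in every oocyte, zygote and E2C embryo and dropped at L2C. It was at 8.02 ± 2.67 copies in oocytes (SD, n = 10; lowest 3.36, median 8.64, highest 12.2) and at 8.27 ± 3.04 in zygotes (n = 9; 4.59, 7.30 and 12.9). The 5 E2C embryos had 2.84, 22.2, 15.9, 7.85 and 16.2 copies, a wider spread with embryo 1 the lowest. At L2C the 6 embryos lay between 0 and 2.00 copies, with a mean of 1.18 ± 0.716 from 8 UMIs in all, and every one was below every E2C embryo. The log2 difference was -2.34 (SE 0.442, limma adjusted p = 8.267e-06). From the 4-cell to the 16-cell stage the stage means lay between 0.862 and 2.02 copies with embryos at 0 at each of these stages, so later differences were not detectable at this depth. Among the later cells 9 of 22 of the 32-cell stage, 10 of 13 of the blastocyst and 3 of 5 mESC had a Srebf2 UMI.

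Insig1, the gene of the protein that retains the SREBP carrier, fell at E2C and again at L2C. Oocytes had 41.5 ± 9.17 copies (n = 10; lowest 29.8, median 40.0, highest 56.4) and zygotes 32.0 ± 15.6 (n = 9; 13.3, 26.3 and 52.9), and these overlapped widely without a call (log2 difference -0.54). The 5 E2C embryos had 11.02, 14.1, 8.48, 14.6 and 12.9 copies, all below the lowest oocyte, with embryos 2 and 4 above the lowest zygote. From zygote to E2C the log2 difference was -1.13 (SE 0.284, adjusted p = 0.003792), but it was -0.35 from the isoform table, -0.95 with a pseudocount of 5 and -0.998 without E2C embryo 3, none of them called. By sequencing run the zygote means were 26.7 (run 1, n = 4), 17.5 (run 2, n = 2) and 48.7 copies (run 3, n = 3). The run of the E2C embryos was not known here, and the part of run in this difference was not tested. L2C embryos had a mean of 8.06 ± 7.31 copies with a median of 5.81 and a highest value of 22.3 in embryo 1, which was 4 UMIs. The second step, from E2C to L2C, had a log2 difference of -1.15 (SE 0.391, adjusted p = 0.00979) and was lost without E2C embryo 4 (-1.06), L2C embryo 2 (-0.83) or L2C embryo 6 (-1.08), without array weights (-0.85), without the filter (-1.15), with a pseudocount of 5 (-0.75) and from the isoform table (-1.17). From the 4-cell to the 16-cell stage the means were 6.23, 5.31 and 5.83 copies and no step among them was called. The median was 2.22 copies in 32-cell cells, 4.57 in blastocyst cells and 0 in mESC, where 2 of 5 cells had a UMI.

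Hmgcs1 encodes the cytosolic synthase that makes HMG-CoA. It rose from oocyte to zygote, stood highest at E2C and fell at L2C. Oocytes had 12.4 ± 11.2 copies (n = 10; lowest 2.76, median 8.59, highest 42.5) and zygotes 35.2 ± 18.6 (n = 9; 6.35, 37.9 and 66.4). The ranges overlapped, with oocyte 6 far above the other oocytes and the lowest zygote below the median oocyte. The log2 difference was 1.62 (SE 0.273, adjusted p = 1.693e-05), and 1.78 without oocyte 6. The cell lists of the study name the sequencing run of oocytes and zygotes. In run 1 the 5 oocytes lay between 7.23 and 14.9 copies and the 4 zygotes between 28.3 and 38.1, without overlap. In run 2 the only oocyte, oocyte 6, had 42.5 copies and the 2 zygotes 49.9 and 66.4, and in run 3 the 4 oocytes had 2.76 to 8.77 copies and the 3 zygotes 6.35 to 47.1. The mean was thus higher in zygotes within each run, by 1.58, 0.43 and 1.24 on the log2 scale, and with run as a term the difference was 1.298 and still called. For later stages the run of an embryo was not known here.

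The 5 E2C embryos had 58.1, 50.5, 52.1, 51.4 and 36.3 copies of Hmgcs1, a mean of 49.7 ± 8.06 from 434 UMIs, and lay within the range of the zygotes. The 6 L2C embryos had between 2.50 and 12.8 copies, a mean of 7.71 ± 3.47, and all were below all E2C embryos. The log2 difference was -2.67 (SE 0.516, adjusted p = 1.215e-05). The 4-cell embryos had 14.7, 0, 1.52, 1.79 and 3.84 copies, and the 8-cell embryos 1.44, 1.94, 0 and 1.14, with a mean of 1.13 ± 0.821. In 16-cell embryos the mean was 3.38 ± 2.13 copies, with no call between these stages. In single cells the median was 2.81 copies at the 32-cell stage, 2.12 in blastocysts and 7.01 in mESC, where the range was 0 to 21.5.

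Idi1, the isomerase that makes the allylic 5-carbon unit, was likewise highest up to E2C and fell at L2C. Oocytes had 4.13 ± 1.93 copies (n = 10; lowest 1.03, median 3.60, highest 7.31), zygotes 5.23 ± 2.33 (n = 9; 2.06, 4.69 and 9.75) and the 5 E2C embryos 5.45, 7.58, 4.55, 5.03 and 10.8. These 3 groups overlapped and no step among them was called. At L2C 3 of 6 embryos were at 0, and the mean was 1.32 ± 2.166 copies from 4 UMIs in all. The log2 difference from E2C was -2.22 (SE 0.436, adjusted p = 1.593e-05), with an overlap through L2C embryo 1, whose 5.56 copies were 1 UMI. With a pseudocount of 5 in place of 1 the difference was -0.97 and was not called. From the 4-cell to the 16-cell stage between 2 and 10 UMIs were seen per stage, and the median single cell of the 32-cell stage, the blastocyst and mESC was at 0.

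Fdps encodes the synthase that joins 5-carbon units into farnesyl diphosphate, and its level moved the opposite way. It was at or below 2.02 copies on average in oocytes, zygotes and E2C embryos. L2C embryos had a mean of 6.37 ± 4.11 copies (n = 6; lowest 0.875, median 6.96, highest 11.1), a difference that missed the limit (log2 difference 1.03, SE 0.398) and passed it without array weights (1.11), with a minimum of 5 copies (1.03), without E2C embryo 5 (1.13) or without L2C embryo 6 (1.44). The 5 4-cell embryos had 16.0, 47.5, 14.0, 27.4 and 35.2 copies, a mean of 28.0 ± 13.9 from 134 UMIs, and the lowest of them was above every L2C embryo. The log2 difference was 2.21 (SE 0.450, adjusted p = 0.002975). The 8-cell embryos had 25.2, 35.7, 42.8 and 40.6 copies, a mean of 36.1 ± 7.81, and the 16-cell embryos 13.1, 18.6, 30.6 and 38.8, a mean of 25.3 ± 11.6. The last 3 stages overlapped and no step among them was called. Fdps was the only one of the 8 with a UMI in all 40 later cells, at medians of 11.01 copies in 32-cell cells (2.45 to 37.8), 20.7 in blastocyst cells (2.33 to 38.9) and 31.9 in mESC (16.4 to 51.6).

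Sqle encodes squalene epoxidase, the oxygen-using step that opens the sterol branch, and it rose from E2C to L2C. It was at 0.768 ± 0.398 copies in oocytes, 1.19 ± 0.855 in zygotes, and 1.75, 2.82, 2.11, 1.03 and 1.09 in the 5 E2C embryos. The 6 L2C embryos had between 9.94 and 22.3 copies, with a median of 11.4 and a mean of 14.4 ± 5.76 from 79 UMIs, and every one was above every E2C embryo. The log2 difference was 2.36 (SE 0.384, adjusted p = 4.284e-07). The 4-cell embryos had 6.40, 27.4, 8.24, 5.32 and 8.23 copies, where the value of embryo 2 rested on 5 UMIs. The 8-cell embryos had 2.51, 5.87, 2.81 and 3.70 copies and the 16-cell embryos 1.46, 1.84, 0 and 5.15. These 2 later differences, -0.87 and -0.88 on the log2 scale, were not called. The first was called without array weights (-1.17) and the second without 16-cell embryo 4 (-1.03). The median cell was at 0 at the 32-cell stage and in blastocysts and at 5.46 copies in mESC.

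Cyp51, the lanosterol demethylase, was at or below 1.09 copies on average at each stage up to 16-cell, with between 2 and 13 UMIs per stage. In mESC 3 of 5 cells held 4 UMIs, a median of 4.30 copies with a range of 0 to 10.9. At these counts no change of Cyp51 was detectable.

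Scd2, the fatty acid desaturase, was below 1 copy on average up to the 8-cell stage and was highest in blastocyst cells. Stage means were 0.183 copies in oocytes, 0.876 in zygotes (21 UMIs), 0.345 at E2C and 0.277 at L2C, and the 17 cells of the 4-cell stage held no UMI, which allows up to 0.572 copies. From oocyte to zygote Scd2 was not called, with a log2 difference of 0.67, and it was called with a pseudocount of 0.1 (1.92). The 8-cell embryos had 1.12, 0.397, 0 and 0.365 copies and the 16-cell embryos 3.54, 17.9, 0.986 and 0.628, overlapping through the 2 lower embryos. The log2 difference was 1.59 (SE 0.378, adjusted p = 0.0139). It was lost without 16-cell embryo 1 (log2 difference 1.21) or embryo 2 (0.84), so it rested on these embryos. A Scd2 UMI was found in 18 of 22 cells of the 32-cell stage (median 7.08 copies, highest 32.9), in 13 of 13 blastocyst cells (median 22.4, from 7.12 to 50.3) and in 1 of 5 mESC. The mESC, which had fewer UMIs per cell, held 2 Scd2 UMIs in all. The trophectoderm markers summed to a median of 33.5 copies in 32-cell cells and 31.1 in blastocyst cells, and the part of cell type in the Scd2 level was not tested.

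**Figure D2:**
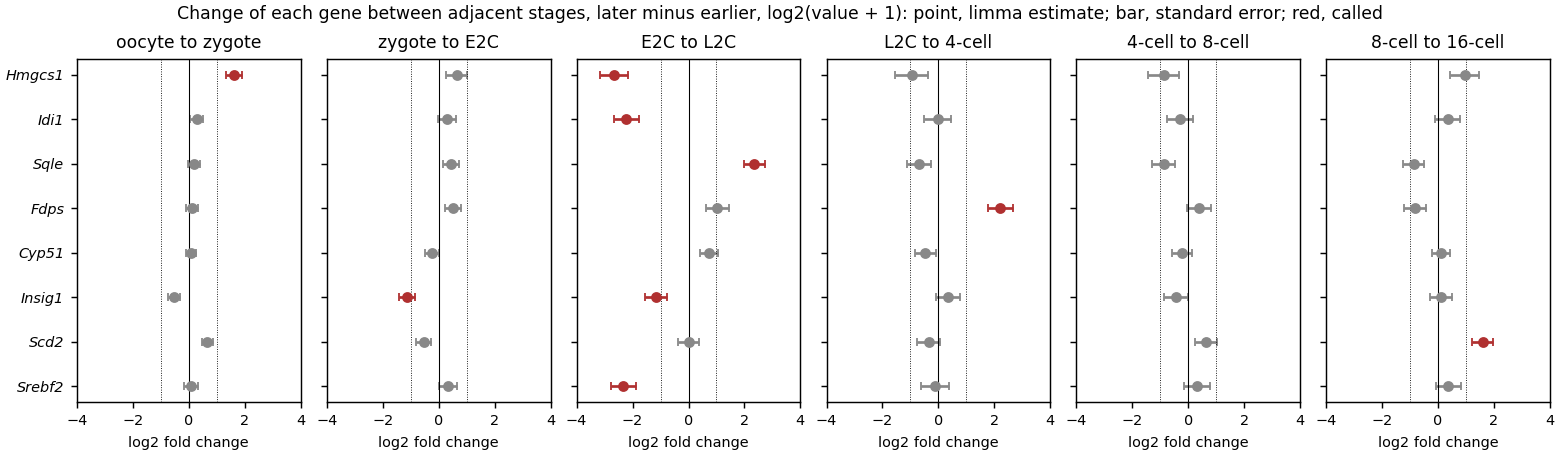
Log2 difference of each gene between each stage and the one before, on log2(copies + 1), as the limma estimate with its standard error. Red points passed the limits, and dotted lines mark a difference of 1 in either direction. The E2C to L2C step holds 5 of the 9 calls, 4 of them below 0.

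The low later levels of the genes that were high in oocytes were read beside the 6 oocyte markers, as a percent of the mean in oocytes, and these did not move alike. At E2C H1foo and Gdf9 were at 6.85% and 6.15%, Zp1 and Zp3 at 85.6% and 52.2%, and Bmp15 and Zp2 at 377.7% and 180.4%. At L2C they were at 2.06% (H1foo), 2.19% (Gdf9), 9.02% (Bmp15), 59.2% (Zp1), 108.8% (Zp2) and 252.5% (Zp3). From the 4-cell stage on, mESC included, H1foo lay between 0.318% and 8.75%, Gdf9 between 0.351% and 4.28%, Bmp15 between 0 and 2.98%, Zp1 between 0 and 13.6%, Zp2 between 0 and 23.15% and Zp3 between 7.91% and 97.9%. Of the genes described here, Insig1 was at 19.4% at L2C and between 8.97% and 15.02% from the 4-cell stage on. Hmgcs1 was at 62.4% at L2C and then between 9.115% and 74.4%, Idi1 at 31.9% and then between 9.86% and 77.3%, and Srebf2 at 14.8% and then between 10.75% and 56.7%, with the highest value of each in mESC. The part of free or carried RNA in these low values was not tested.

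The genes around the 8 in the pathway were read from lists. Of 16 other enzymes of sterol synthesis 15 were tested, and from E2C to L2C 6 rose (among them Acat2, Ebp, Fdft1, Lss and Mvk) and 3 fell (Msmo1, Nsdhl and Sc5d), or 40% and 20% of the 15 beside 25.6% and 22.8% of all genes, with a list median of 0.69 beside 0.03. Ebp, a sterol isomerase, went from 1.09 ± 1.03 to 10.6 ± 3.30 copies (log2 difference 2.58, adjusted p = 5.622e-07). Fdft1, the squalene synthase that works between Fdps and Sqle, went from 7.74 ± 2.06 to 21.2 ± 9.12 copies (1.40, adjusted p = 0.002542). From zygote to E2C 3 rose (Acat2, Fdft1 and Nsdhl) and 1 fell, or 20% and 6.67% of the 15 beside 4.52% and 2.75% of all genes. The fall was that of Sc5d, a desaturase of the late sterol path, from 15.8 ± 5.04 to 5.29 ± 2.33 copies (-1.42, adjusted p = 0.000346). At the other 4 steps at most 1 of the 15 rose and at most 1 fell, or 6.67% each. Of all genes 1.9% to 4.47% were called higher and 0.325% to 10.5% lower at these steps. Msmo1, a sterol demethylase, rose from 2.87 ± 4.02 to 10.2 ± 4.27 copies between the 4-cell and the 8-cell stage (2.40, adjusted p = 2.099e-05), and Fdft1 fell from 25.8 ± 8.97 to 11.8 ± 9.09 between the 8-cell and the 16-cell stage (-1.55, adjusted p = 0.03336).

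Of 5 genes that act on SREBP all were tested. Mbtps1, the first protease, fell from zygote to E2C and rose from E2C to L2C, and Mbtps2, the second, fell from 10.4 ± 3.34 to 2.09 ± 2.44 copies from E2C to L2C (-2.01, adjusted p = 6.893e-05). Each of these calls was 20% of the 5. Of all genes, 2.75% were called lower from zygote to E2C, and 25.6% higher and 22.8% lower from E2C to L2C. Scap had 21.5 ± 8.41 copies in oocytes and 2.88 ± 0.598 at the 16-cell stage with no call at a single step. Insig2 and Srebf1, the relatives of Insig1 and Srebf2, had stage means of at most 1.35 and 0.81 copies up to 16-cell, and neither was called.

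Of 17 genes of uptake, transport and efflux 12 were tested, and the receptor genes Vldlr and Lrp8 did not pass the filter. From E2C to L2C 3 rose (Npc2, Nr1h3 and Stard3) and 2 fell (Scarb1 and Stard4), or 25% and 16.7% of the 12 beside 25.6% and 22.8% of all genes. Npc2, which carries cholesterol out of lysosomes, went from 6.28 ± 2.05 to 35.1 ± 12.8 copies (2.175, adjusted p = 3.258e-07), with no overlap between embryos. Its partner Npc1 fell earlier, from 14.7 ± 9.83 in zygotes to 2.70 ± 1.45 at E2C (-1.77, adjusted p = 4.714e-05). Soat1, which esterifies sterols, rose from oocyte to zygote, Nr1h2 and Nr1h3 rose from L2C to the 4-cell stage, Nr1h3 fell from the 4-cell to the 8-cell stage, and from the 8-cell to the 16-cell stage Stard4 rose and Soat2 fell. The rises from L2C to the 4-cell stage were 16.7% of the 12, beside 2.41% of all genes. The calls of Npc1, Soat1, Stard4, Soat2 and the fall of Nr1h3 were 8.33% of the 12 each. Beside them, 2.75% of all genes were lower from zygote to E2C and 2.92% higher from oocyte to zygote. From the 4-cell to the 8-cell stage 10.5% were lower, and at the last step 1.9% were higher and 1.46% lower.

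Of 9 genes of fatty acid synthesis 8 were tested. From E2C to L2C 4 rose (Acss2, Elovl6, Fasn and Scd1) and none fell, or 50% and 0% of the 8 beside 25.6% and 22.8% of all genes, with a list median of 1.05 beside 0.03. Scd2 was not among the genes that rose there, with 0.345 and 0.277 copies. Elovl5, which lengthens unsaturated fatty acids, fell from 11.8 ± 4.10 copies in zygotes to 0.454 ± 0.495 at E2C (-3.11, adjusted p = 7.723e-13), without overlap. Acss2 and Scd1 fell from the 4-cell to the 8-cell stage, or 25% of the 8 beside 10.5% of all genes. Scd1 rose from the 8-cell to the 16-cell stage, or 12.5% beside 1.9%. The fall of Elovl5 from zygote to E2C was likewise 12.5% of the 8, beside 2.75% of all genes.

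Likeness of pattern over the 43 replicates is given as a description, since the points share stages and libraries. Pearson's r was 0.681 between Idi1 and Insig1, 0.655 between Hmgcs1 and Srebf2 and 0.639 between Hmgcs1 and Idi1. Fdps had r of -0.770 with Insig1, -0.741 with Srebf2 and -0.714 with Hmgcs1, and 0.519 with Sqle. Cyp51 had r between -0.173 and 0.113 with the other 7, and Scd2 between -0.231 and 0.096. Among 1933 genes with a mean of at least 10 copies over the stage means, the closest in pattern were Nlrp14 to Hmgcs1 (r = 0.898), Pld1 to Idi1 (0.851), Ctsa to Fdps (0.913), Pak2 to Sqle (0.873), Ubqln1 to Insig1 (0.899) and Gm13103 to Srebf2 (0.867). For Scd2 and Cyp51 the highest r was 0.604 (Hsp90aa1) and 0.425 (2700062C07Rik).

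Isoforms were read from the isoform table, whose values have their own total, so that counts of UMIs and not copies were set beside the gene table. The table held 13 isoforms of Fdps, 12 of Hmgcs1, 10 of Insig1, 10 of Sqle, 2 each of Idi1, Cyp51 and Scd2 and 1 of Srebf2. In the classes of SQANTI, FSM has all introns of a known transcript, ISM only a run of them, NIC known splice sites in another combination and NNC a splice site not in the annotation. Of 52 isoforms 20 passed the filter, and 29409 isoforms were tested in all.

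Sqle and Fdps were each led by 1 isoform of the annotated form. PB.26710.1 of Sqle (FSM, 11 exons, 2818 bases, chr15:59315026-59331197, GRCm38) has the introns of the annotated coding transcript and went from 3 UMIs at E2C to 39 at L2C (log2 difference 2.48, adjusted p = 1.786e-05). The other 9 Sqle isoforms are ISM and begin further downstream, with ends at the same place. PB.48013.2 of Fdps (FSM, 10 exons, 1300 bases, chr3:89093585-89102019) has the introns of an annotated coding transcript and held 644 UMIs in 140 cells. Its level in the isoform table was 5.30 ± 3.43 copies at L2C and 26.7 ± 19.1 at the 4-cell stage (2.32, adjusted p = 0.009414). The next Fdps isoform, PB.48013.3 (ISM, 9 exons), held 45 UMIs over all cells. It was called higher at the same step (1.35, adjusted p = 0.03897), on 0 UMIs at L2C and 8 at the 4-cell stage. PB.48013.7 of Fdps (NNC, 14 UMIs in 12 cells) starts 9939 bases upstream of the annotated gene and holds the whole coding sequence. Of the 20 tested isoforms 0, 1, 2, 2, 2 and 0 were called at the 6 steps in order, where 1.48%, 5.18%, 26%, 4.29%, 7.93% and 1.97% of all isoforms were called in either direction. From the 4-cell to the 8-cell stage PB.26710.1 of Sqle was called lower (-1.37, adjusted p = 0.05546), on 26 and 14 UMIs. PB.48013.8 of Fdps (ISM) was called higher there (1.06, adjusted p = 0.04369), on 1 and 11 UMIs. For Insig1, PB.56087.9 was called higher from zygote to E2C (1.01, adjusted p = 8.582e-05), on 2 and 6 UMIs. It had 0 UMIs in oocytes and from the 4-cell to the 16-cell stage, and 1 at L2C. It thus passed the filter mostly through the E2C embryos, where it was high, and its p is not independent of that choice. PB.56087.2 was called lower from E2C to L2C (-1.01, adjusted p = 0.01652), on 8 and 1 UMIs. It had 4 UMIs in oocytes, 4 in zygotes and 0 from the 4-cell to the 16-cell stage. This isoform likewise passed the filter mostly through the E2C embryos, so its p is not independent of that choice. From oocyte to zygote and from the 8-cell to the 16-cell stage limma called none of the 20, and gave an unadjusted p under 0.05 to 2 and 0 of them. edgeR and DESeq2 called none there as well, but their own filter kept 4285 isoforms in all, beside 29409 in limma. It left out isoforms with few UMIs, PB.56087.9 among them, so some of the 20 were not tested by edgeR or DESeq2.

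Hmgcs1, Idi1, Insig1 and Srebf2 kept a minority of their UMIs in the isoform table in oocytes, zygotes and E2C embryos. The isoform table, which keeps isoforms that passed the authors' filters, held 43 of 267 Hmgcs1 UMIs in oocytes (16.1%), 133 of 870 in zygotes (15.3%) and 39 of 434 at E2C (8.99%), beside medians over genes of 57.1%, 52.5% and 49.7%, and 22.3%, 22.5% and 16.1% of genes lay at or below these shares. Idi1 kept 2 of 86, 5 of 136 and 4 of 55 UMIs (2.33%, 3.68% and 7.27%), with 9.34%, 10.9% and 14.0% of genes at or below. Insig1 kept 197 of 832 UMIs in oocytes (23.7%) and 157 of 779 in zygotes (20.2%), with 27.5% and 26.3% of genes at or below. At E2C it kept 36 of 101 (35.6%), with 38.6% of genes at or below. The share was also low at the 16-cell stage, at 12.7% for Hmgcs1 and 15.5% for Insig1. There the median over genes was 72.2%, and 6.82% and 7.67% of genes lay at or below these shares. Srebf2 kept 0 of 164, 0 of 197 and 0 of 109 UMIs in oocytes, zygotes and E2C embryos, which allows shares of up to 1.83%, 1.52% and 2.75%. Among genes with at least 50 UMIs, 6.74%, 6.79% and 5.46% likewise kept none at these stages. Scd2 kept 4 of 154 UMIs in blastocyst cells (2.60%), at or below which lay 1.06% of genes, against a median of 84.5%. Sqle and Fdps kept more, with 64 of 79 at L2C (81.0%) and 124 of 134 at the 4-cell stage (92.5%). The medians over genes at these later stages were 72.2% and 83.3%, and 63.1% and 78.5% of genes lay at or below these shares. The only Srebf2 isoform listed, PB.27595.1 (4 exons, 1998 bases, chr15:82147232-82173892), has the introns of a transcript that GENCODE names as one with a retained intron, ends 31487 bases before the end of the gene and holds no whole coding sequence. From the isoform table the rise of Hmgcs1 from oocyte to zygote was 0.86 and was not called.

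**Figure D3:**
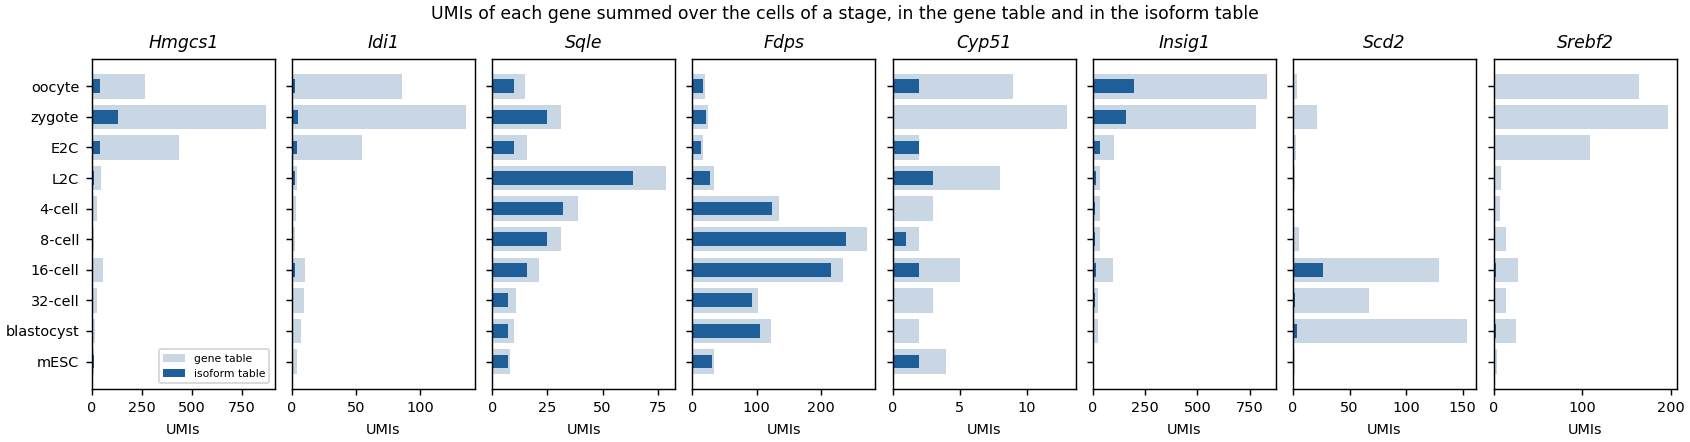
UMIs of each gene summed over the cells of a stage, in the gene table (light bars) and in the isoform table (dark bars), on axes that start at 0 and differ between genes. The dark bars fill little of the light ones for Hmgcs1, Idi1, Insig1, Scd2 and Srebf2 and most of them for Sqle and Fdps.

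The most frequent Hmgcs1 isoforms were PB.22337.6 (FSM, 10 exons, 3322 bases, with the introns of an annotated coding transcript) with 59 UMIs and PB.22337.86 (ISM, 2 exons, 1859 bases) with 43. Of the 12 forms 10 share an end 174 to 187 bases before the annotated gene end and differ in where they begin. By distance from the gene start they end at 17694 to 17707 bases. An annotated coding transcript of Hmgcs1 ends among them, at 17703 bases, and a longer one sets the gene end at 17881 bases. Idi1 had PB.18841.2 with 10 UMIs, which ends 1783 bases before the gene end, and PB.18841.4 with 9, and Cyp51 had PB.55462.16 and PB.55462.12 with 7 and 5. Scd2 had PB.39403.3 and PB.39403.14, both ending 3469 bases before the gene end.

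Insig1 isoforms differed in their 3′ ends, and the share that ended at the gene end was lower at E2C than in zygotes in a comparison chosen after the ends had been seen. PB.56087.1 (258 UMIs, 5 exons, 2819 bases, chr5:28071244-28078665) and PB.56087.4 (106 UMIs, 5 exons, 1331 bases, chr5:28071363-28077296) have the same introns and both hold the whole coding sequence, but PB.56087.4 ends 1366 bases earlier. The forms PB.56087.2, PB.56087.9 and PB.56087.7 end 622, 885 and 1480 bases before the gene end. Of Insig1 isoform UMIs, 157 of 197 in oocytes ended within 10 bases of the annotated end (79.7%), 101 of 157 in zygotes (64.3%) and 7 of 36 at E2C (19.4%). By embryo the share was 65.7% ± 26.8 in oocytes (n = 10), 53.5% ± 27.1 in zygotes (n = 9) and 10, 0, 25, 27.8 and 0% in the 5 E2C embryos, which held 1 to 18 UMIs each. The ranges overlapped, since 1 oocyte and 1 zygote were at 0. The difference between zygote and E2C was -41.0 percentage points (exact two-sided permutation test, p = 0.01199, adjusted p = 0.02398 over the 2 steps compared, which does not cover the choice of the comparison), and that between oocyte and zygote -12.1 points (exact p = 0.3424). Within runs 1, 2 and 3 the pooled share was 60%, 60% and 87.3% in oocytes and 48.8%, 48.3% and 77.7% in zygotes, and the run of the E2C embryos was not known here. At later stages 10 to 15 UMIs per stage were left. The isoform table kept 35.6% of the Insig1 UMIs of E2C and 20.2% of those of zygotes, and the part of that filter in the change was not tested.

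**Figure D4:**
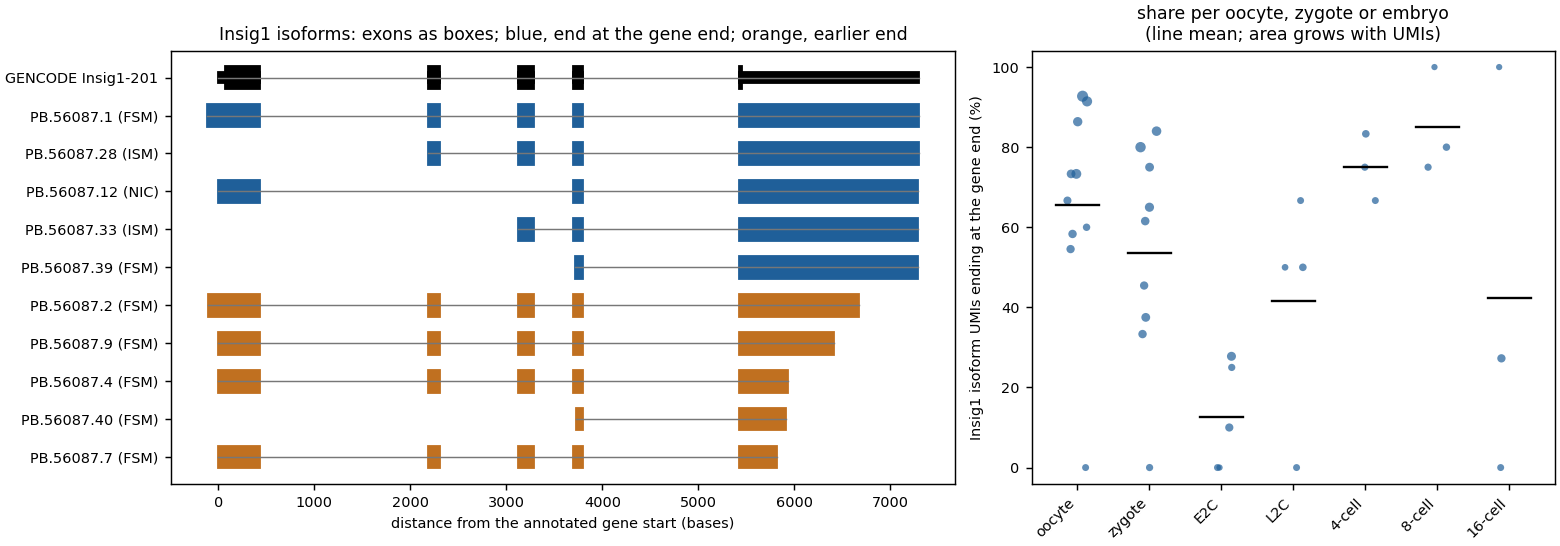
Left, exons of the 10 Insig1 isoforms under the annotated transcript, whose coding part is drawn taller, by distance from the annotated gene start in bases, with isoforms that end at the gene end in blue and those that end earlier in orange. Right, share of Insig1 isoform UMIs that end at the gene end, in percent, for each oocyte, zygote or embryo with such UMIs, with larger points for more UMIs and the mean as a line. The 5 E2C embryos lie between 0 and 27.8%.

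Batch 4 measured 4 intact oocytes, 6 columns of 1/2 oocytes and 6 columns of 1/4 oocytes as whole UMI counts per isoform, with 129744 to 289774 UMIs per column. Parts may come from the same oocyte, so no test was made. Per 100,000 UMIs the sum over Hmgcs1 isoforms had medians of 38.2 in intact oocytes (29.7 to 59.4), 39.6 in 1/2 oocytes (24.2 to 50.2) and 37.6 in 1/4 oocytes (4.70 to 59.8). Insig1 had medians of 68.9, 69.8 and 71.8. Srebf2 was more variable, at 16.4 (3.83 to 24.6), 6.04 (2.85 to 18.6) and 11.5 (8.46 to 26.7), and the ranges of intact and split oocytes overlapped for all 3 genes. Idi1 had medians of 7.12 (7.10 to 9.31), 5.33 (1.43 to 6.90) and 8.10 (4.37 to 9.41). These rested on 13 to 21, 3 to 13 and 6 to 22 UMIs per column. The 1/2 oocytes lay just below the intact ones (highest 6.90, lowest 7.10), and the 1/4 oocytes overlapped both. How many other genes showed such a gap was not counted. Sqle, Fdps and Cyp51 had at most 4 UMIs in a column, and Scd2 was not listed. Nested isoforms had near-equal counts there, with 549, 454, 416, 407 and 394 UMIs for PB.56087.1, PB.56087.28, PB.56087.39, PB.56087.33 and PB.56087.12 of Insig1, against 139, 7, 4, 6 and 1 in the 10 oocytes of the other batches. PB.27595.1 of Srebf2 held 401 UMIs in 16 of 16 columns and 0 in those 10 oocytes. Levels were therefore not set beside those of the other batches.

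**Figure D5:**
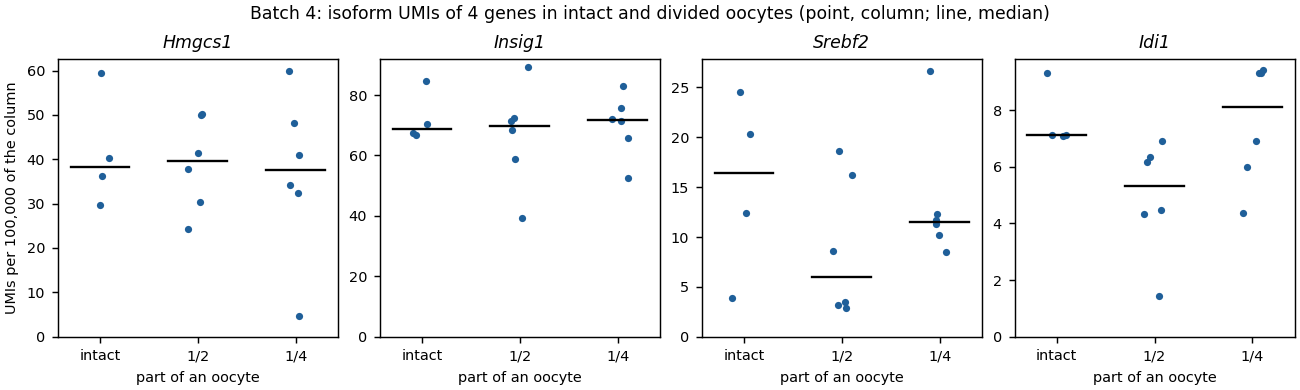
UMIs per 100,000 of the column for 4 genes in intact, 1/2 and 1/4 oocytes of batch 4, each point being 1 column and each line a median. The ranges of intact and split oocytes overlap for Hmgcs1, Insig1 and Srebf2.

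The 8 genes lie on GRCm38 at chr13:119690379-119708260 (Hmgcs1), chr13:8885501-8892451 (Idi1), chr3:89093588-89101959 (Fdps), chr15:59315077-59331192 (Sqle), chr5:4081145-4104746 (Cyp51), chr15:82147181-82205379 (Srebf2), chr5:28071363-28078662 (Insig1) and chr19:44293674-44306864 (Scd2). Fdps and Cyp51 are on the minus strand and the others on the plus strand. Annotated genes overlap Fdps (Gm43738 and Gm22935), Scd2 (Mir5114) and Srebf2 (Gm49502 and Mir33) on the same strand, and Hmgcs1 (Gm48342), Idi1 (Gm48574) and Cyp51 (Akap9) on the other, so that reads of the partner could be counted with them.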

How the data were processed

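The 8 genes and the gene and marker lists were chosen with earlier results of these data known. Per the study's methods, the authors made consensus reads with SMRT-Link, took cell barcodes and UMIs with scISA-Tools, aligned to mm10 with minimap2, collapsed isoforms with cDNA_Cupcake, classed and filtered them with SQANTI3 and left out isoforms seen in few cells. In the deposited table of batches 1 to 3 the fewest cells per isoform was 5. The deposited gene and isoform values are of the CPM kind, scaled by the authors to 100,000 UMIs per cell. They were recorded as a score where the header names no unit, and the deposited batch 4 table holds whole UMI counts. Every non-zero value of the gene and isoform tables was a whole multiple of the smallest in its cell (100.0% within 0.1 of a whole number), so whole UMIs were recovered. All columns were used.

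Values were averaged per oocyte, zygote or embryo and tested with limma 3.58.1 (R 4.3.3; trend, array weights, 7 stages in 1 fit, 6 contrasts) on log2(value + 1), among features with at least 1 copy in at least 4 embryos. A fold change on this scale understates changes of low genes. Calls needed a log2 difference over 1 and p under 0.01, and adjusted p-values are Benjamini-Hochberg over all features tested. edgeR 4.0.16 and DESeq2 1.42.0 on recovered UMIs were alternatives. The limma script was tested on simulated data. Replicates are separate oocytes, zygotes or embryos, some of which may share a litter or run, and the 4 labelled samples are sequencing batches, so columns were grouped by their names. Named were all 8 genes, up to 3 rises and 3 falls per step among called list genes with at least 10 copies, the gene of highest r for each of the 8 and the 2 isoforms with the most UMIs. Other isoforms, Mbtps1, Scap, Insig2, Srebf1 and further called list genes outside this rule were named after their values were seen. Some genes of the lists are not reported here by name.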

Additional observations from a re-analysis of the deposited data

Results flagged for a closer look

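In 55 groups of 4 to 10 replicates, 8 had an embryo or oocyte far from the rest by the limits of Dixon's test. Its rate of 1 in 20 by chance is set for normally distributed values. It cannot be applied to low counts with many zeros, so the 8 are given as a description. Hmgcs1 was at 42.5 copies in oocyte 6, the only oocyte of run 2, where the next oocyte had 14.9. It was at 14.7 copies in 4-cell embryo 1, with 3.84 in the next. Idi1 was at 5.56 copies in L2C embryo 1, which was 1 UMI of 17971, and at 5.84 in 8-cell embryo 3, which was 2 UMIs. Sqle was at 27.4 copies in 4-cell embryo 2, from 5 UMIs, with 8.24 in the next embryo. Insig1 was at 22.3 copies in L2C embryo 1, from 4 UMIs, and at 13.5 in 16-cell embryo 2, from 74 UMIs. Scd2 was at 17.9 copies in the same 16-cell embryo, from 114 UMIs, with 3.54 in the next.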

How the results depend on the processing

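The 9 calls among the genes became 8 with edgeR and 8 with DESeq2 on recovered UMIs, 5 with a pseudocount of 5 and 3 from values summed out of the isoform table, and ranged from 8 to 11 as each embryo was left out. The falls of Hmgcs1 and Srebf2 and the rises of Sqle and Fdps were called under every alternative run for them. From oocyte to zygote 0 genes were called from the isoform table and 2 with a pseudocount of 0.1. From zygote to E2C 0 were called from the isoform table and 0 with a pseudocount of 5, with 0 to 1 as embryos were left out. From E2C to L2C 2 were called from the isoform table and 3 with a pseudocount of 5, with 4 to 6 as embryos were left out. From the 4-cell to the 8-cell stage 1 was called without array weights. From the 8-cell to the 16-cell stage 0 were called with edgeR, with DESeq2, with a minimum of 5 copies, from the isoform table or with a pseudocount of 0.1 or 5, with 0 to 3 as embryos were left out (3 without 16-cell embryo 4). Scd2 did not pass the filters of the first 4 of these. The 7 isoform calls became 2 with edgeR, 2 with DESeq2, 3 with a minimum of 5 copies and 2 with a pseudocount of 5, and ranged from 5 to 11 as embryos were left out (11 without E2C embryo 3). The first 3 of these settings tested 4285, 4285 and 6104 isoforms, beside 29409 in the main fit. Low isoforms such as PB.56087.9 were thus not tested in them. By step, 1 isoform was called from oocyte to zygote with a pseudocount of 0.1. From zygote to E2C 0 were called with edgeR, DESeq2, summed UMIs, a minimum of 5 copies or a pseudocount of 5, with 0 to 2 on leaving out embryos. From E2C to L2C 1 was called under each of these settings and 4 without array weights, with 1 to 5 on leaving out embryos. From L2C to the 4-cell stage 1 was called with edgeR, DESeq2, a minimum of 5 copies or a pseudocount of 5, with 1 to 3 on leaving out embryos. From the 4-cell to the 8-cell stage 0 were called with edgeR, DESeq2 or a pseudocount of 0.1 or 5 and 1 with a minimum of 5 copies, with 0 to 2 on leaving out embryos. Apart from these filters, the cause of these changes was not tested. Leaving out oocyte 6 and the settings for the Insig1 ends were chosen after seeing the data, and on whole coding sequences only the latter difference was -35.8 points (exact permutation p = 0.02098), or -37.8 to -44.8 points as each E2C embryo was left out. No direction of a called change was reversed. No paired analysis was possible because replicate numbers name separate oocytes, zygotes and embryos at each stage. Depth limits Cyp51, Idi1 and Srebf2 after E2C.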
